A study of Mus musculus with 9 samples.

Results

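Heterotrimeric G proteins, the RGS proteins that switch them off and the adenylyl cyclases that they control were examined in the forebrain of mouse embryos with 2 copies or 1 copy of *Npas3*, which encodes a basic helix-loop-helix PAS transcription factor. Members were chosen by gene symbol, as the G alpha, G beta and G gamma subunits, the RGS genes named by number and the adenylyl cyclases, with a summed count of at least 90 over the 9 embryos. By this rule 54 of the 55401 genes in the count table were members, with 13 G alpha, 5 G beta, 10 G gamma, 17 RGS and 9 adenylyl cyclase genes. Another 10 symbols matched but fell under the minimum, namely *Adcy10*, *Gnat1*, *Gnat2*, *Gnat3*, *Gng13*, *Gngt1*, *Rgs1*, *Rgs14*, *Rgs18* and *Rgs21*. All 54 members were among the 17818 genes that passed the filter on low counts and were tested.

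RNA-seq was performed on bulk forebrain of female embryos at E16 to E17, 5 with both *Npas3* alleles intact (*Npas3*+/+, WT) and 4 with a constitutive deletion of 1 allele (*Npas3*+/-, HET). The line was on the C57BL/6J background, WT littermates served as controls, and no embryo received a treatment. The deletion is carried by every cell of a HET embryo and is not specific to a cell type. Each library is 1 embryo, called here by its group and number (WT 5, 15, 16, 41 and 43, and HET 5, 6, 7 and 24). Litters are not given in the sources used here.

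A heterotrimeric G protein relays the signal of an activated receptor through its GTP-bound alpha subunit and its released beta-gamma dimer. RGS proteins speed the hydrolysis of GTP on alpha subunits and so end the signal. Adenylyl cyclases make cAMP and are stimulated by Gs alpha subunits, inhibited by Gi subunits and tuned, by isoform, by calcium and by beta-gamma, which in the forebrain links dopamine, serotonin, noradrenaline and other neuromodulators to protein kinase A.

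Libraries held 42640218 to 62830060 counts each. *Npas3* (ENSMUSG00000021010, chromosome 12, 53248677 to 54072175, plus strand, GRCm38) measured 36.2 ± 4.18 CPM in the 5 WT and 29.5 ± 3.09 CPM in the 4 HET embryos (mean ± SD), with overlap between the groups. CPM are counts scaled to the library's TMM-adjusted size. Differences are given as log2FC, the log2 fold change of HET minus WT from edgeR's quasi-likelihood fit, with its SE, and p-values adjusted over all genes tested are called FDR. For *Npas3* the log2FC was −0.30 (SE 0.10, edgeR FDR 0.877). The submitters' labels name astrocytes as the cell type, but the 7 neuron markers summed to 5232 to 6345 CPM. The 8 astrocyte markers summed to 662 to 772 CPM, most of it *Slc1a3*, *Aldoc*, *Slc1a2* and *Gja1*, with *S100b* under 1 CPM in every embryo, so the libraries are treated as whole forebrain. Choroid plexus markers split the embryos. *Ttr* was at 2127 to 2631 CPM in WT 15, 16 and 41, at 467 CPM in HET 24 and at 0.770 to 11.7 CPM in the other 5. *Rgs13*, *Gna14*, *Gna13*, *Rgs22* and *Htr2c* are given below with and without those embryos. In bulk tissue, fewer cells of a type and less RNA per cell cannot be told apart.

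The E16 to E17 forebrain carried a broad but steeply graded set of these genes. To compare genes, levels were divided by the length of the union of a gene's exons and are given as CPM per kb, as the mean of the 9 embryos. *Gnb1*, the main beta subunit, stood highest at 215.9 CPM per kb, and *Gna15*, a Gq-family alpha subunit best known from blood cells, stood lowest at 0.122 CPM per kb. Summed over each class, G alpha genes reached 396.5 ± 23.0 CPM per kb in the 5 WT and 410.0 ± 14.9 in the 4 HET embryos (mean ± SD). G beta genes summed to 332.6 ± 16.5 in WT and 339.7 ± 13.002 in HET, and G gamma genes to 250.4 ± 15.8 and 249.0 ± 26.6. The RGS genes together held far less, 80.3 ± 4.96 CPM per kb in WT and 80.5 ± 5.48 in HET, and the adenylyl cyclases least, 36.2 ± 3.93 in WT and 40.02 ± 4.29 in HET. In all 5 classes the ranges of WT and HET embryos overlapped.

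**Figure D1:**
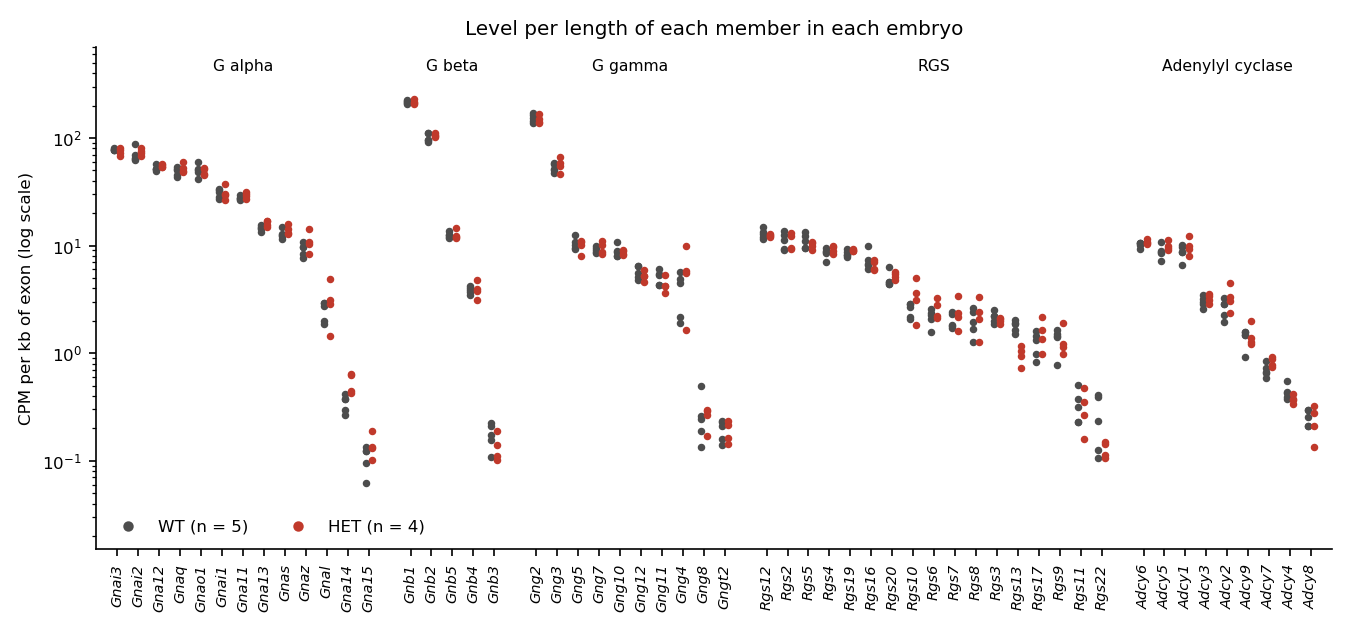
Level of each of the 54 members in each embryo, in CPM per kb of exon on a log axis, with WT in grey (n = 5) and HET in red (n = 4), ordered within each class by mean level. The classes differ in height far more than the genotypes do, and WT and HET points lie apart only for *Rgs13* and *Gna14*.

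Within each class a few genes supplied most of the level. *Gnb1* gave 64.3% and *Gnb2* 30.7% of the summed G beta level, and *Gng2* gave 60.7% and *Gng3* 21.8% of that of G gamma. Among alpha subunits the Gi/o family, which inhibits adenylyl cyclase, gave 59.3%, the Gq family, which activates phospholipase C, 19.7%, the G12/13 family 17.0% and the Gs family 4.001%. The Gs share is uncertain, because the exon union of *Gnas* (11186 bases) includes alternative transcripts and 22.0% of it overlaps genes on the opposite strand. Of the RGS level, the R4 family gave 53.7%, the R12 family 19.5%, the RZ family 18.8% and the R7 family, which works with *Gnb5*, 7.67%. Of the adenylyl cyclase level, the calcium-inhibited pair *Adcy5* and *Adcy6* gave 52.3% and the calcium-stimulated *Adcy1*, *Adcy3* and *Adcy8* gave 33.2%. Some levels are uncertain, because exons overlap another gene and the use of strand in counting is not given in the sources used here. This holds most for *Gng10* (72.0% of its exonic bases, on the same strand), *Gng3* (24.2%, opposite strand), *Adcy3* (22.1%, opposite strand) and *Gng2* (20.4%, opposite strand).

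The comparison of HET with WT asks whether loss of 1 *Npas3* copy changes this signalling set. No member passed an FDR of 0.05 in edgeR's test (0 of 54), where 0.14% of all genes tested did. At an unadjusted p of 0.05, 4 of 54 members passed, against 5.42% of all genes tested, so the share among members (7.41%) was near the background. *Gna14* and *Gna13* were higher and *Rgs13* and *Rgs22* lower in HET embryos. The CPM of WT and HET embryos lay fully apart for 2 members, *Rgs13* and *Gna14*, against 1.85% of all genes tested. DESeq2, the tool that the study used for its own comparison, called 1 member on the same counts, *Rgs13*, at an FDR of 0.000605. It called 0.381% of the 22039 genes that it gave an FDR.

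The precision differed between members. For 38 of the 54 the 95% interval of the difference lay within 1.5-fold in either direction, and for the other 16 it reached beyond. The median log2FC of the members was 0.07, beside −0.0046 over all genes tested. Of the members 33 were above 0 and 21 below (61.1% above), where 48.5% of all genes tested were above 0. Without HET 7 the members' median was −0.0049.

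**Figure D2:**
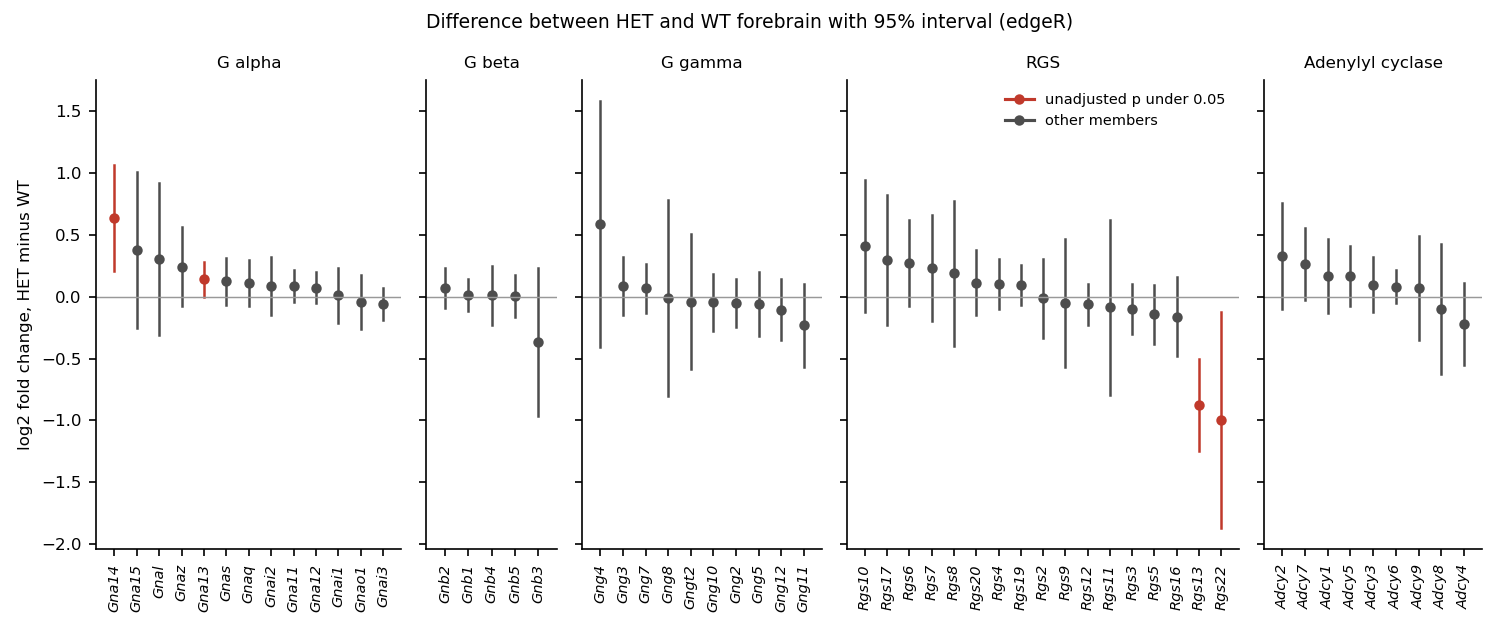
Log2FC, HET minus WT, of each member with its 95% interval from edgeR's fit, sorted within each class, with the 4 members at an unadjusted p under 0.05 in red. Intervals are narrow for the abundant subunits, such as *Gnb1* from −0.12 to 0.14, and wide for *Gng4*, from −0.41 to 1.58.

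*Rgs13*, an R4-family RGS protein best known from B cells and mast cells, was the member with the lowest p. The gene (ENSMUSG00000051079) lies on chromosome 1 from 144138654 to 144177372, minus strand. Its level was 2.69, 3.36, 3.09, 2.47 and 3.18 CPM in WT 5, 15, 16, 41 and 43. In HET 5, 6, 7 and 24 it was 1.95, 1.56, 1.74 and 1.21 CPM. Every HET embryo lay below every WT embryo. The log2FC was −0.87 (SE 0.17, 95% interval −1.24 to −0.50), with an edgeR unadjusted p of 0.000297 and FDR of 0.122, so the call depends on the tool. Leaving out each embryo in turn gave −0.98 to −0.76, with an FDR of 0.134 to 0.506. Adding a choroid plexus score as a covariate gave −0.92 (edgeR FDR 0.153). Among the 5 embryos with *Ttr* under 100 CPM (2 WT, 3 HET) the log2FC was −0.75 (edgeR unadjusted p 0.00670, FDR 0.999). These values rest on 63 to 157 counts per embryo.

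*Gna14*, a Gq-family alpha subunit (ENSMUSG00000024697, chromosome 19, 16435762 to 16610820, plus strand), showed the reverse arrangement. Its level was 1.44, 0.907, 1.28, 1.01 and 1.28 CPM in WT 5, 15, 16, 41 and 43, on 41 to 101 counts per embryo over both groups. In HET 5, 6, 7 and 24 it was 2.19, 2.17, 1.53 and 1.48 CPM. All HET embryos were above all WT embryos, but HET 24 exceeded WT 5 by little. The log2FC was 0.64 (SE 0.19, 95% interval 0.21 to 1.06), with an edgeR unadjusted p of 0.00749 and FDR of 0.734. The choroid plexus covariate gave 0.46, and it was 0.52 (edgeR unadjusted p 0.0652) among embryos with *Ttr* under 100 CPM.

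The sequence upstream of both genes is shown because they were the members whose groups did not overlap, and because the study considers E-boxes (CANNTG), the element that basic helix-loop-helix proteins bind. Each run is the 250 bases before the transcription start of RefSeq (GRCm38.p6), written 5′ to 3′ on the strand of the gene, with E-boxes in capitals. *Rgs13* is on the minus strand of chromosome 1 (chr1:144177373-144177622) and *Gna14* on the plus strand of chromosome 19 (chr19:16435417-16435666).
Rgs13: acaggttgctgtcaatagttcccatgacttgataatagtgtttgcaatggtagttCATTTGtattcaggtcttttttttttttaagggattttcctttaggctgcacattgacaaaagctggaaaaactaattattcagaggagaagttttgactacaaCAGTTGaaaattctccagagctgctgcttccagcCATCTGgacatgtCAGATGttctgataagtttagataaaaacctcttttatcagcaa
Gna14: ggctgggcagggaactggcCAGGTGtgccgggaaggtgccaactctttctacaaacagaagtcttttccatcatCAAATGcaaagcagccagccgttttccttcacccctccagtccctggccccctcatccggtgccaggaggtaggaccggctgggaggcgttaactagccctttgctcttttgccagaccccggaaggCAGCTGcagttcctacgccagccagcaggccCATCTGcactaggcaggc

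Each window holds 4 E-boxes. In *Rgs13* they begin 195, 91, 57 and 44 bases before the start, and in *Gna14* 231, 176, 49 and 18 bases before it. CANNTG reads the same on both strands, so 1 search covers both. The E-box form CACGTG, present in 6.02% of RefSeq promoters, is in neither window. CAGCTG, which is also a palindrome, is in the *Gna14* window, 49 bases before the start. At least 1 E-box was found in 66.2% of the 32851 RefSeq promoters of this length, with a median of 1, and 4 or more in 3.84%. Of the members, 42 have a promoter in that table, 57 promoters in all. At least 1 E-box was present in 52.6% of these 57, and 4 or more in 5, those of *Rgs13*, *Gna14*, *Rgs4*, *Rgs9* and *Adcy7*. *Rgs4* and *Rgs9* did not pass even an unadjusted p of 0.05 (log2FCs 0.11 and −0.05), nor did *Adcy7* (0.26). The RefSeq start of *Gna14* lies 95 bases before its first base in GENCODE M21. A match of these letters is a description and not a binding site.

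**Figure D3:**
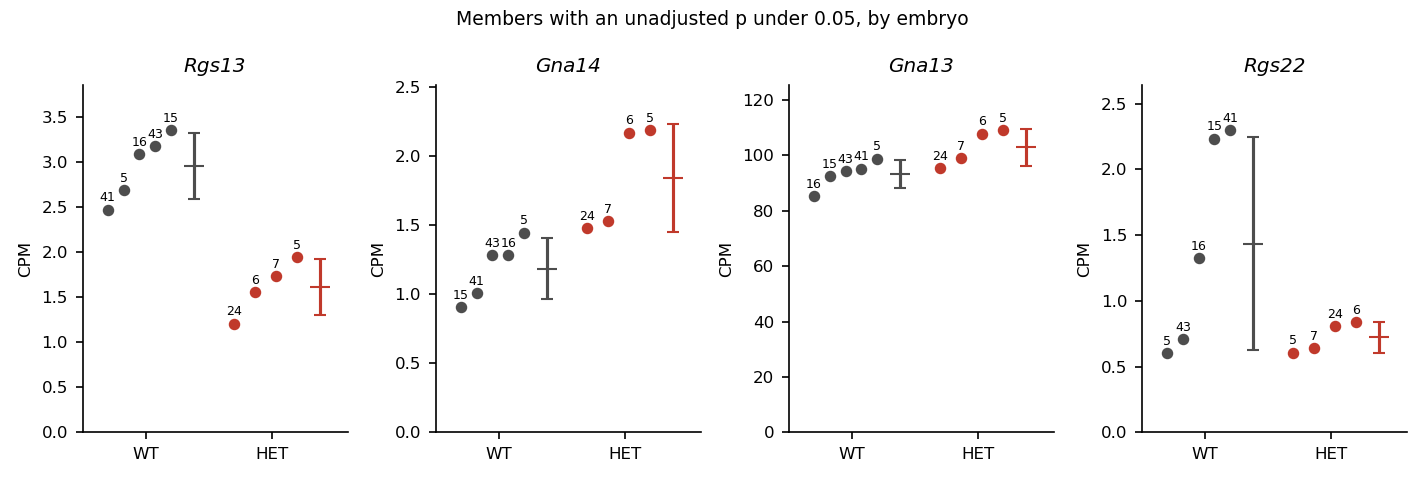
CPM of *Rgs13*, *Gna14*, *Gna13* and *Rgs22* in each embryo, sorted by value within WT (grey, n = 5) and HET (red, n = 4) and marked with the embryo's number, beside the mean ± SD of each group, on axes that start at 0. The groups are apart for *Rgs13* and *Gna14*, overlap between 95.4 and 98.8 CPM for *Gna13*, and for *Rgs22* WT 15, 16 and 41 alone stand above the other 6 embryos.

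Of the 13 G alpha genes, 11 had a log2FC above 0 and 2 below, with a median of 0.11. *Gna13* (ENSMUSG00000020611, chromosome 11, 109362831 to 109401369, plus strand), a subunit of the G12/13 family, was at 98.8, 92.5, 85.3, 95.2 and 94.4 CPM in WT 5, 15, 16, 41 and 43 and at 109.2, 107.8, 99.1 and 95.4 CPM in HET 5, 6, 7 and 24. HET 24 lay within 1 CPM of WT 41 and below WT 5, so the groups overlapped. The log2FC was 0.14 (SE 0.06), with an edgeR unadjusted p of 0.0488 and FDR of 0.911. Leaving out each embryo in turn gave 0.11 to 0.18. The choroid plexus covariate gave 0.0996 (edgeR unadjusted p 0.182). Among embryos with *Ttr* under 100 CPM the log2FC was 0.13 (edgeR unadjusted p 0.165). The member most like *Gna13* in pattern was *Gna14*, with Pearson's r of 0.79 and a Spearman correlation of 0.87 between log2 levels over the 9 embryos, which include the genotype difference itself. Without WT 15, 16 and 41, r was 0.97 over 6 embryos. The next was *Rgs20* (r 0.71 over the 9 embryos and 0.52 over those 6).

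The alpha subunits of highest level passed neither threshold. *Gnai3*, the highest at 77.0 CPM per kb, had a log2FC of −0.06 (95% interval −0.19 to 0.07). *Gnai2*, at 71.4 CPM per kb, had 0.09 (−0.15 to 0.32), with WT 5 at 334.7 CPM well above the other WT embryos. *Gna12*, at 53.3 CPM per kb and with 13.4% of its exonic bases overlapped on the opposite strand, had 0.07 (−0.05 to 0.20). For these 3 subunits a difference as large as 1.5-fold lay outside the interval. The Gq-family genes were all above 0 (*Gnaq* 0.11, *Gna11* 0.09, *Gna14* 0.64, *Gna15* 0.38 on the log2 scale), and of these *Gna15* rests on 6 to 21 counts per embryo.

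*Gnal*, the Gs-family subunit that couples dopamine and adenosine receptors to cyclase in striatal neurons, was among the 5 most variable members. It was at 32.6, 30.8, 21.03, 32.8 and 22.2 CPM in WT 5, 15, 16, 41 and 43, and at 16.3, 34.8, 54.8 and 32.1 CPM in HET 5, 6, 7 and 24. The lowest and the highest value both came from HET embryos. The log2FC was 0.31 (SE 0.28, edgeR FDR 0.913).

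None of the 5 G beta genes passed either threshold. *Gnb1* was within 1.11-fold over all 9 embryos (log2FC 0.01, 95% interval −0.12 to 0.14), the narrowest range of the 54 members. *Gnb2* had a log2FC of 0.07 (−0.09 to 0.24), and *Gnb5*, the atypical beta subunit that stabilizes R7-family RGS proteins, 0.01 (−0.16 to 0.18). *Gnb3*, known from cone photoreceptors, had the third lowest log2FC of all members, −0.37 (SE 0.27), on 13 to 29 counts per embryo, and its interval of −0.97 to 0.23 spans 0.

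No G gamma gene passed either threshold, with 3 above 0 and 7 below. *Gng2* and *Gng3*, the gamma subunits of highest level (151.6 and 54.5 CPM per kb), had log2FCs of −0.05 (95% interval −0.24 to 0.14) and 0.09 (−0.14 to 0.32). *Gng5*, a broadly expressed subunit at 10.2 CPM per kb, had −0.06 (−0.32 to 0.20). *Gng8*, known from olfactory neurons and the habenula, was at 0.205 to 0.746 CPM in WT and 0.260 to 0.455 CPM in HET embryos, on 12 to 31 counts per embryo.

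*Gng4* had the second largest log2FC of the members, 0.59, and the widest range between embryos. It was at 15.03, 16.2, 6.35, 18.9 and 7.18 CPM in WT 5, 15, 16, 41 and 43. In HET 5, 6, 7 and 24 it was at 5.46, 18.7, 33.0 and 19.4 CPM. HET embryos held both the lowest and the highest value, a 6.06-fold range, and the SE of the difference was 0.45 (edgeR FDR 0.911). Without HET 7 the log2FC was 0.20, and without HET 5 it was 0.90.

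Among the 17 RGS genes 8 were above 0 and 9 below. *Rgs22* (ENSMUSG00000037627, chromosome 15, 36009479 to 36140400, minus strand), best known from testis, had the lowest log2FC, −0.997 (SE 0.40, edgeR unadjusted p 0.0291, FDR 0.908). Its level was 0.601, 2.23, 1.33, 2.30 and 0.707 CPM in WT 5, 15, 16, 41 and 43 and 0.606, 0.838, 0.641 and 0.806 CPM in HET 5, 6, 7 and 24. The 3 high values were those of the WT embryos with high *Ttr*, while WT 5 and WT 43 were within the HET range or below it. Of the 10 choroid plexus markers, 8 were likewise highest in these 3 embryos, whereas *Otx2* and *Prlr* were not. The 10 summed to 27.6 to 2939 CPM in WT and 37.7 to 547 CPM in HET embryos, most of it *Ttr*, and 7 had an edgeR unadjusted p under 0.05. The choroid plexus covariate brought the log2FC to −0.26, and among embryos with *Ttr* under 100 CPM it was 0.08. Leaving out each embryo in turn gave −1.19 to −0.75.

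The members most like *Rgs22* over the 9 embryos were *Rgs5*, a marker of brain pericytes, with r of 0.90, and *Gng11* with r of 0.84. Both were likewise highest in WT 15 or WT 41. Over the 6 embryos without the 3 of high *Ttr*, r was 0.34 and 0.60. For *Rgs13* the most alike members were *Gnai3* (r 0.63, Spearman correlation 0.35) and *Gnb3* (r 0.56), and for *Gna14* after *Gna13* it was *Gnai2* (r 0.68). Over the same 6 embryos r was 0.66 for *Gnai3*, 0.17 for *Gnb3* and 0.39 for *Gnai2*. These likenesses describe 9 libraries that share the genotype contrast.

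The RGS genes of highest level per length passed neither threshold. *Rgs12*, a large multidomain protein at 12.8 CPM per kb, had a log2FC of −0.06 (95% interval −0.23 to 0.10). *Rgs2*, which prefers Gq, was at 11.1 CPM per kb with −0.01 (−0.33 to 0.31), and *Rgs5* at 10.7 CPM per kb with −0.14 (−0.38 to 0.10). *Rgs10*, the third largest difference of the members at 0.41 (SE 0.24), was at 3.59 to 4.95 CPM in WT and at 3.12, 5.31, 8.58 and 6.18 CPM in HET 5, 6, 7 and 24. HET 5 was thus below all WT embryos and the other 3 HET embryos above them. Without HET 7 its log2FC was 0.16, and without HET 5 it was 0.62. *Rgs11*, an R7-family protein known from retinal bipolar cells, varied 3.16-fold between embryos with no separation of the groups (0.96 to 2.12 CPM in WT, 0.671 to 1.98 in HET).

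Of the 9 adenylyl cyclases, 7 were above 0 and 2 (*Adcy4*, *Adcy8*) below, and none passed either threshold. *Adcy6*, the highest at 10.5 CPM per kb, had a log2FC of 0.08 (95% interval −0.05 to 0.21). *Adcy5*, the main cyclase of striatal neurons, was at 63.4 ± 9.65 CPM in the 5 WT and 71.1 ± 6.65 CPM in the 4 HET embryos (mean ± SD), a log2FC of 0.17 (−0.08 to 0.41). *Adcy1*, the calmodulin-activated cyclase of cortical and hippocampal neurons, had 0.17 (−0.13 to 0.47). Leaving out each embryo in turn gave 0.098 to 0.25 for *Adcy5* and 0.054 to 0.25 for *Adcy1*. The lowest p of the class was that of *Adcy7*, a beta-gamma-stimulated isoform, with 0.26 (SE 0.13, edgeR unadjusted p 0.0719, FDR 0.911).

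Other genes of the pathway were taken from a list of 139 receptors, exchange factors, kinases, arrestins, phosphodiesterases and effectors, of which 124 were tested. None passed an FDR of 0.05 in edgeR's test, and at an unadjusted p of 0.05 there were 6 higher and 1 lower in HET embryos, beside 5.42% of all genes tested. Of the 124, 91 were above 0 and 33 below, with a median of 0.11. Over all genes tested 48.5% were above 0, with a median of −0.0046. Neither this count nor its dependence on single embryos was tested. The groups did not overlap for 2 of the 124, beside 1.85% of all genes tested. *Lpar1*, a lysophosphatidic acid receptor of progenitors and oligodendrocyte precursors, had the lowest p. It was at 20.9 ± 3.34 CPM in the 5 WT and 27.3 ± 0.486 CPM in the 4 HET embryos (mean ± SD), without overlap (log2FC 0.38, SE 0.11, edgeR unadjusted p 0.00473, FDR 0.615). The next were the receptor genes *Adra1a* (0.91), *Galr1* (0.65) and *Htr6* (0.56), the RGS anchor gene *Rgs9bp* (0.30) and the receptor gene *S1pr3* (0.25), with edgeR FDR of 0.814 to 0.911. The 1 gene lower was *Htr2c* (−1.64), a serotonin receptor abundant in choroid plexus, at 22.0 ± 17.4 CPM in the 5 WT and 7.06 ± 4.01 CPM in the 4 HET embryos (mean ± SD). Its log2FC was 0.10 with the choroid plexus covariate and 0.59 among embryos with *Ttr* under 100 CPM. The 15 cAMP phosphodiesterases tested had 10 above 0 and 5 below and no unadjusted p under 0.05, and the same holds for the 21 genes of protein kinase A, Epac, HCN channels and CREB, with 16 above and 5 below.

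For many members the embryos of a genotype lay far apart. HET 7 held the highest value of 24 of the 54 members (44.4%), where it held the highest of 15.5% of all genes tested, and WT 16 and HET 5 each held the lowest value of 15 members (27.8%), beside 20.9% and 11.8% of all genes tested. For 11 members (20.4%) the 3 lowest embryos were WT 16, WT 43 and HET 5, which was so for 4.73% of all genes tested. These 11 were *Adcy2*, *Gnal*, *Gnaq*, *Gnaz*, *Gng12*, *Gng4*, *Rgs10*, *Rgs17*, *Rgs2*, *Rgs7* and *Rgs8*. The pattern was noticed in these values and crosses the genotypes.

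Some markers of GABAergic and striatal neurons moved with these 11 members. *Gad1*, *Gad2*, *Dlx1*, *Dlx2* and *Dlx5*, 5 of the 8 interneuron markers, had the same 3 lowest embryos, whereas *Lhx6*, *Sst* and *Npy* did not. So did the striatal markers *Tac1*, *Isl1* and *Six3*, as well as *Slc1a2* of the 8 astrocyte and *Prlr* of the 10 choroid plexus markers, and none of the neuron, radial glia or cortical excitatory neuron markers. *Isl1* was at 2.96, 4.90 and 4.05 CPM in WT 16, WT 43 and HET 5 and at 12.3 to 34.1 CPM in the other 6. *Gad1*, which makes GABA, was at 41.95, 46.7 and 33.4 CPM in WT 16, WT 43 and HET 5 and at 79.4 to 121 CPM in the other 6 embryos. The 8 markers summed to 237.5 to 468 CPM in WT and 192 to 452 CPM in HET embryos, and none was under 1 CPM in every embryo. With the mean log2 level of these 8 markers as a covariate, an alternative chosen after the data were seen, the difference in *Gng4* was 0.40 with an SE of 0.11 in place of 0.59 and 0.45 (edgeR unadjusted p 0.00362, FDR 0.423). For *Gnal* it was 0.18 with an SE of 0.11 in place of 0.31 and 0.28, and for *Rgs10* 0.31 with 0.13 in place of 0.41 and 0.24. These genes were among the 11 selected by their lowest embryos, which 5 of the 8 markers share. A smaller SE thus follows from the selection, and neither it nor the p is a separate test of genotype. The score also holds *Npy*, which was itself apart by genotype, at 2.43 to 5.39 CPM in WT and 6.94 to 9.56 CPM in HET embryos. *Rgs13* kept −0.87, with an edgeR FDR of 0.0824. In that fit 8 members (14.8%) had an unadjusted p under 0.05, as did 7.13% of all genes tested, and no member had an FDR under 0.05 in edgeR's test. *Gng4* and *Rgs10* were among the 8, so the selection enters this count too.

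**Figure D4:**
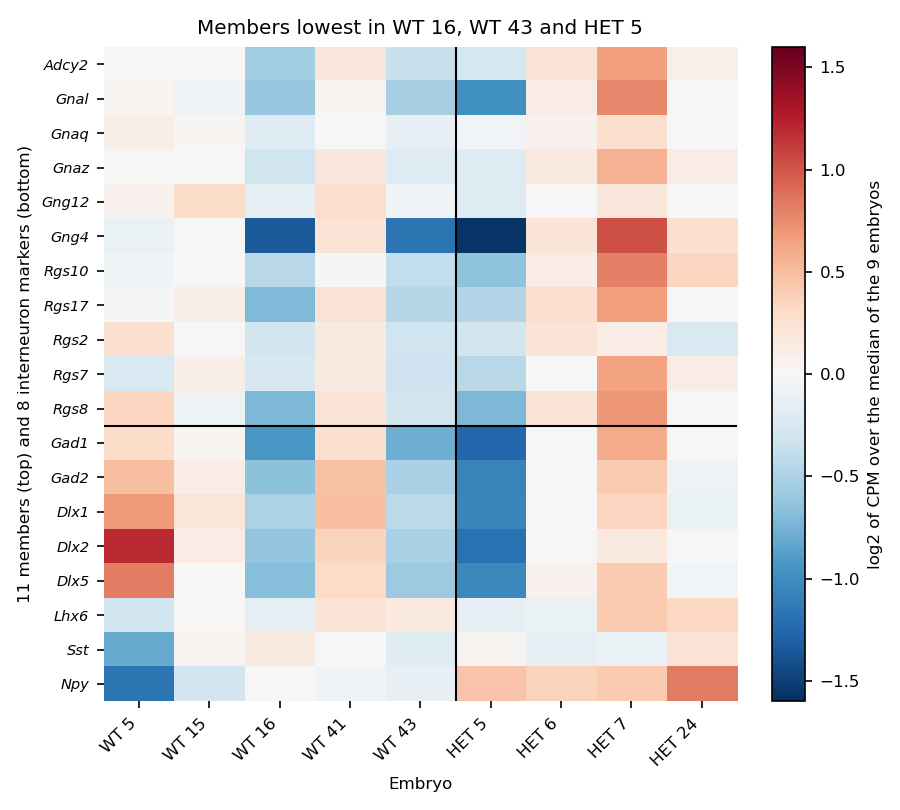
Log2 of the CPM in each embryo over the median of the 9 embryos, for the 11 members whose 3 lowest embryos were WT 16, WT 43 and HET 5 (top) and for the 8 interneuron markers (bottom), with WT left and HET right of the vertical line. Those 3 columns are blue in the upper block by selection, and *Gad1*, *Gad2*, *Dlx1*, *Dlx2* and *Dlx5* are blue in the same columns, while *Lhx6*, *Sst* and *Npy* are not.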

How the data were processed

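Poly(A) RNA of 9 embryonic forebrains (5 WT, 4 HET) was sequenced. The authors aligned reads to GRCm38.p6 with STAR 2.7.9a and used featureCounts with GENCODE annotation to count reads per gene, and the deposited values are these raw counts, 1 column per embryo. Total counts were 42640218 to 62830060. PCR duplicates cannot be told apart in these counts, so reads may outnumber the molecules sampled. The p-values rest on the spread between these embryos.

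Groups follow the genotype label of each sample. Genes were filtered with filterByExpr (minimum count 10), scaled by TMM and compared by edgeR's quasi-likelihood test (edgeR 4.0.16, R 4.3.3) over all 17818 genes without covariates, with Benjamini-Hochberg adjustment (FDR) at 0.05. No set test was run. Exon lengths, coordinates and overlaps came from GENCODE M21, an earlier release than the one the authors counted with, and promoters from RefSeq. Correlations used log2 of CPM plus 0.5.

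Named were members with an FDR or unadjusted p under 0.05, members without overlap between groups, the 3 highest per length in each class, the 3 largest and 3 smallest log2 fold changes, the 5 most variable and, of the other pathway genes, those with the lowest p, plus *Npas3*. Values of other members illustrate their group and were picked after the data were seen. The members and lists were chosen with earlier results of these data known. Alternatives were DESeq2 1.42.0, limma-voom (limma 3.58.1), other scalings and filters, a choroid plexus score, embryos with *Ttr* under 100 CPM, each embryo left out and, added later, an interneuron marker score.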

Additional observations from a re-analysis of the deposited data

Results flagged for a closer look

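Within a genotype, a single embryo stood apart for 2 members by Dixon's test at its 95% critical value, of 50 groups examined, where chance gives about 2.5. *Gnai2* was at 334.7 CPM in WT 5, against 234.1 to 260.5 CPM in the other 4 WT embryos. *Gnb5* was at 45.01 CPM in HET 7, against 36.7 to 37.998 CPM in the other 3 HET embryos. Groups of 4 and 5 embryos were both examined, and no cause was tested.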

How the results depend on the processing

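Each of 25 named members was refitted under up to 18 alternatives, 447 values in all, of which 418 kept the direction and the side of the threshold, 28 reversed and 1, *Rgs13* under DESeq2, passed the threshold. The count of members with an FDR under 0.05 was 0 throughout except for 1 under DESeq2 (edgeR found 4 at an unadjusted p under 0.05). Members without overlap, 2 in all 9 embryos, numbered 2 to 6 when 1 embryo was left out, beside 2.31% to 5.71% of all genes (6 members and 5.71% without WT 5), and 10 (18.5%) among the low-*Ttr* embryos (under 100 CPM, 2 WT and 3 HET), beside 17.4% of all genes. Members with an unadjusted p under 0.05 numbered 1 to 8. The 8 (14.8%) came without HET 5, beside 7.23% of all genes, and with the interneuron marker score, beside 7.13%. The 1 (1.85%) came among the low-*Ttr* embryos, beside 3.7% of all genes. The share of all genes was lowest without HET 6 (3.47%, with 3 members) and highest without WT 5 (9.97%, with 7 members). No other pathway gene was called in any fit. 12 named members, *Rgs13*, *Gna14* and *Gna13* among them, never reversed.

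Among the low-*Ttr* embryos, log2FC values reversed to 0.083 for *Rgs22*, −0.011 for *Gnai2*, 0.038 for *Gng2*, 0.028 for *Rgs2*, 0.062 for *Rgs5*, 0.15 for *Gnb3* and 0.38 for *Rgs11*. With the choroid plexus score they reversed to −0.0080 for *Gnai2*, 0.0096 for *Gng2*, 0.0048 for *Rgs5* and 0.28 for *Rgs11*, and under limma-voom to 0.10 for *Gng8*. Leaving out each embryo gave −0.014 to 0.031 for *Gnb1*, −0.063 to 0.042 for *Gnb5*, −0.0062 to 0.17 for *Gng3*, −0.11 to 0.035 for *Gng5*, −0.096 to 0.069 for *Rgs2*, −0.20 to 0.33 for *Gng8*, −0.0051 to 0.54 for *Gnal* and −0.35 to 0.13 for *Rgs11*. The cause was not tested. No paired analysis was possible because litters are not given and nothing in the labels says that embryos of the same number are a pair. At this depth *Gna15*, *Gnb3*, *Gng8* and *Gngt2* rest on at most 31 counts per embryo, which limits them.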
